A study of Mus musculus with 24 samples.

Results

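The 4 libraries described here compare wild-type mouse embryonic stem cells (mESCs) with the same kind of cells after differentiation towards extraembryonic endoderm (diff_XEN). They were taken by the sample labels from the 24 samples of the series, 2 mESC libraries and 2 diff_XEN libraries, and all genes were compared. All 4 came from wild-type cells of a 129/Ola background whose labelled origin is the blastocyst. The mESC libraries, at passages 33 and 42, came from cells kept on gelatin in medium with 15% serum and 100 U/mL of leukaemia inhibitory factor (LIF). The diff_XEN libraries, A and B in the deposited table, came from cells grown for 5 days on gelatin in medium with 15% serum, 0.1 µM all-trans retinoic acid and 10 ng/mL activin A, without a sorting step in the labels. A passage of the diff_XEN cells is not given. The 2 mESC libraries came from different passages, whereas nothing says that the 2 diff_XEN libraries were grown apart, and the spread between those may be technical. Per the labels, both groups were re-used from earlier studies, which differed between the groups, so study and group cannot be told apart. The fit behind the tests of these groups also held 2 AGO2 knockout diff_XEN libraries, which shared its filter, scaling and estimate of spread.

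Pluripotent cells of the early embryo are held in their state by transcription factors such as Oct4 (Pou5f1), Sox2 and Nanog, with LIF supporting the naive form of that state in culture. The first extraembryonic endoderm arises beside the epiblast under Gata6, Gata4, Sox17 and Sox7. Its parietal derivative lays down Reichert's membrane, a thick sheet of laminin and type IV collagen, whereas its visceral derivative takes up and secretes proteins and lipids around the embryo. XEN cells are the cultured counterpart of this lineage.

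Total counts ranged from 36427340 to 40139219 in the 4 libraries. Levels are counts per 1000000 of the scaled library size (CPM), and pairs of levels are given in the order passage 33 and passage 42, or A and B. Across genes, Pearson's r of log2(CPM + 1) was 0.977 between the mESC libraries and 0.985 between the diff_XEN libraries, against 0.829 to 0.837 between groups. Reads of small nucleolar RNAs made up 0.034% and 0.0451% of counts in mESC against 0.00440% and 0.00657% in diff_XEN, and processed pseudogenes 4.15% and 4.27% against 2.75% and 2.37%. The part of either in the results below was not tested.

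The mESC libraries differed from each other by chromosome. Over 698 genes of chromosome 1 that averaged 5 CPM or more, the median of log2(CPM + 0.5) was 0.65 higher at passage 42 than at passage 33. Over 445 such genes of chromosome 15 it was lower, with a median difference of -0.52. The other 18 chromosomes had medians from -0.07 to 0.24, and between the diff_XEN libraries the medians ran from -0.06 to 0.15. The mean of diff_XEN lay 0.49 above passage 33 but -0.16 relative to passage 42 on chromosome 1, and -0.45 relative to passage 33 but 0.10 above passage 42 on chromosome 15. Ago2, which encodes an Argonaute protein of the microRNA pathway and lies on chromosome 15, stood at 619 and 311 CPM in the mESC libraries and at 389 and 427 CPM in diff_XEN, a difference of -0.19 ± 0.90 (adjusted p 0.874). The diff_XEN levels of Ago2 lay between those of the 2 mESC libraries. DNA copy number was not measured.

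**Figure D1:**
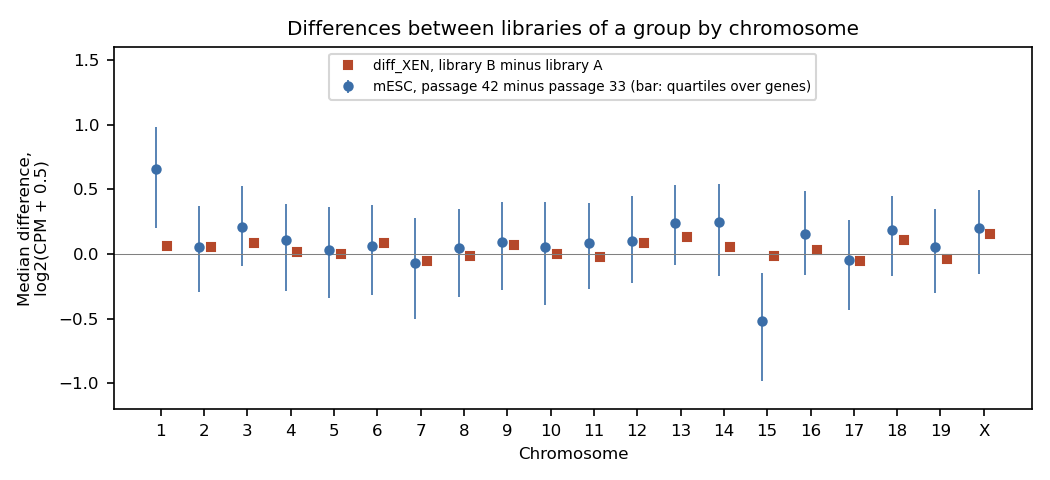
Median difference per chromosome in log2(CPM + 0.5) between the libraries of a group, over genes averaging 5 CPM or more; circles show mESC passage 42 minus passage 33 with quartiles over genes, squares diff_XEN library B minus A. Chromosomes 1 (0.65) and 15 (-0.52) lie apart from the other 18 in mESC, and the medians between the diff_XEN libraries lie between -0.06 and 0.15.

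Of 43629 genes listed, 17936 passed the filter on low counts and 9415 differed between diff_XEN and mESC at an adjusted p below 0.05, which is 52.5% of those tested. Higher in diff_XEN were 4880 genes (27.2%) and lower 4535 (25.3%), and the median log2 fold change of all genes tested was -0.000174. Counts of members of gene lists are read against these shares. For 77.7% of genes tested the 2 levels of one group did not overlap those of the other. A change of more than 1 on the log2 scale was seen in 4365 of the genes called higher and 3839 of those called lower, and of more than 5 in 742 and 319. Log2 fold changes are given as diff_XEN minus mESC with their standard error.

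The pluripotency factors were much lower in diff_XEN, though not absent. Of 13 core pluripotency genes 10 fell and none rose, with a median log2 fold change of -2.60. Sox2 (chr3:34650405-34652461 in GRCm38), a partner of Oct4 on DNA, stood at 306 and 640.4 CPM in mESC and 6.74 and 1.80 CPM in diff_XEN, and fell by 6.79 ± 0.74 (adjusted p 0.000527). Nanog (chr6:122707489-122714633), a homeobox factor that stabilises self-renewal, stood at 589.6 and 710.2 CPM in mESC and 30.4 and 4.57 CPM in diff_XEN and fell by 5.22 ± 0.83 (adjusted p 0.00209). Library A kept several times the Nanog level of library B, and both lay below both mESC libraries. Pou5f1, which encodes Oct4, went from 812 and 521 CPM to 94.8 and 83.7 CPM and fell by 2.90 ± 0.54, less than Sox2 or Nanog, although these differences between genes were not tested. Tdgf1, a co-receptor for Nodal, showed the widest gap of the list, with 789 and 1317 CPM in mESC and 3.87 and 2.87 CPM in diff_XEN, and fell by 8.29 ± 0.53. Trim28, a corepressor that silences retroviral elements, fell by 1.90 and Rif1, a regulator of replication timing, by 2.83. The remaining 3 genes did not pass. Sall4 stood at 184 and 201 CPM in mESC and 131 and 206 CPM in diff_XEN, with overlapping groups, and Lin28a at 276 and 393 CPM in mESC and 157 and 283 CPM in diff_XEN. Utf1 had 79.3 and 47.8 CPM in mESC and 22.1 and 2.13 CPM in diff_XEN and a log2 fold change of -2.39 ± 0.88 (adjusted p 0.0527), with library B far below library A, and was called when either of these was left out (-4.85 without A). In bulk libraries, fewer cells of a type and less RNA per cell cannot be told apart.

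The window of the Nanog promoter shown here carries the only match to the composite Oct4-Sox2 motif among the promoters searched, and is printed because Nanog and the genes of both factors fell. It spans chr6:122707354-122707487 on the plus strand of GRCm38.p6, from RefSeq, and ends just before the start site. Capitals mark the match, which is the letters CATTGT, any base and ATGCAAA read on the opposite strand.
Nanog: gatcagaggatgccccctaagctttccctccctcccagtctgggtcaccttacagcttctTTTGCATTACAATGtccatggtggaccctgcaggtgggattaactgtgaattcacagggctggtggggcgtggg
The match lies 75 to 62 bases before the start site. Of 12258 tested genes with a RefSeq promoter of 250 bases before to 50 after the start, 1 held this motif on either strand, a share of 0.00816%. A match is a description of letters and not a measured binding site.

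Naive pluripotency genes fell as a group. Of 16 members 14 were lower and none was higher, with a median of -3.76, and all 16 had non-overlapping levels, as did 77.7% of all genes tested. Esrrb, an orphan nuclear receptor of the naive network, stood at 591 and 596 CPM in mESC and 31.3 and 23.4 CPM in diff_XEN and fell by 4.44 ± 0.25 (adjusted p 7.63e-05). Zfp42, the classic marker Rex1, went from 656 and 730.3 CPM to 39.7 and 30.1 CPM and fell by 4.31 ± 0.26. Fgf4, the growth factor that naive cells secrete, was close to gone, with 214 and 176 CPM in mESC and 0.731 and 0.219 CPM in diff_XEN, and fell by 8.67 ± 0.56. Klf2, a Krüppel-like factor, stood at 68.3 and 79.2 CPM in mESC and 1.30 and 0.492 CPM in diff_XEN and fell by 6.36 ± 0.48. For these 4 genes both libraries of a group were close to each other relative to the gap between groups. They were named for the smallest p of the list, a choice that favours this pattern.

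Klf4 behaved less uniformly. Its level was 145 and 528 CPM in mESC, with passage 42 well above passage 33, and 75.3 and 118 CPM in diff_XEN, and it fell by 1.80 ± 0.55 (adjusted p 0.0279). Without the passage 42 library the log2 fold change of Klf4 was -0.58 and the gene was not called (adjusted p 0.17), nor was it called without library A or B or without the filter on low counts. Klf5 (-0.56, adjusted p 0.0997) and Tdh, which encodes the threonine dehydrogenase typical of mESCs (-1.19, adjusted p 0.105), did not pass. Tdh was called in a fit of the 4 libraries alone (-1.17, adjusted p 0.0128).

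**Figure D2:**
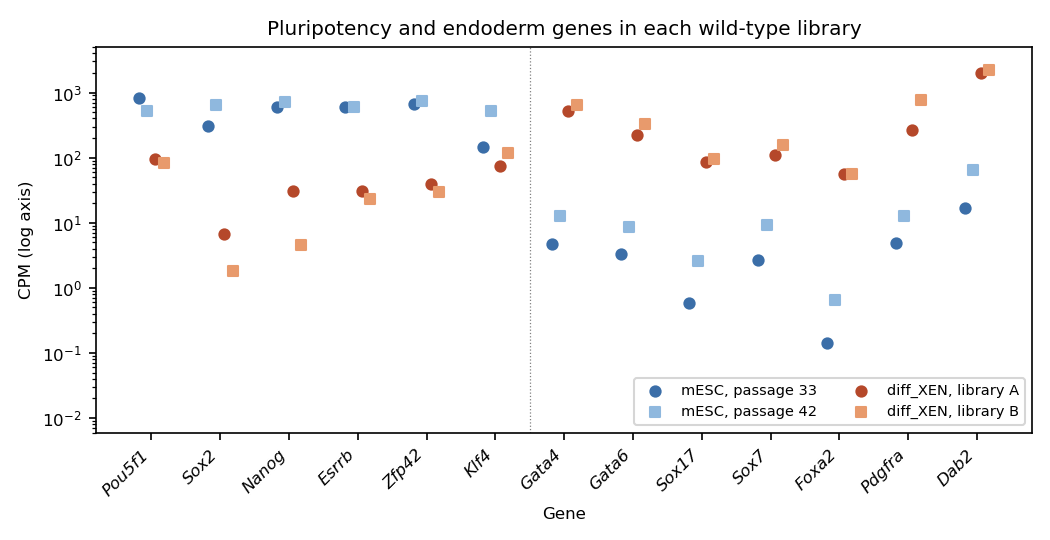
CPM on a log axis of 6 pluripotency genes (left of the dotted line) and 7 endoderm genes (right) in the 4 wild-type libraries, 1 point a library. All 7 endoderm genes lie higher in both diff_XEN libraries than in both mESC libraries, and passage 42 lies above passage 33 for each of the 7.

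Genes of the LIF pathway did not fall as a group. Of 11 LIF and Stat3 pathway genes 6 rose and 2 fell, with a median of 0.76. Osmr, the oncostatin M receptor that shares the gp130 chain with the LIF receptor, stood at 0.360 and 0.493 CPM in mESC and 19.5 and 23.5 CPM in diff_XEN and rose by 5.65 ± 0.37 (adjusted p 9.88e-05). Junb, a member of the AP-1 factors, rose by 2.52. The serine kinases Pim3 (-1.86) and Pim1 (-2.16), targets of Stat3, fell. Stat3 itself (0.55, adjusted p 0.0787) and its feedback inhibitor Socs3 (-0.58, adjusted p 0.247) did not pass.

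Genes of the formative and primed epiblast were mostly lower as well. Of 14 members 8 fell and 3 rose, with a median of -1.93. Foxd3, a forkhead factor of the epiblast, stood at 13.1 and 10.3 CPM in mESC and 0.298 and 0.0273 CPM in diff_XEN and fell by 6.14 ± 0.88, and Etv5, an FGF-responsive ETS factor, fell by 3.38 ± 0.46. Cldn6, a tight junction claudin also found in epithelial endoderm, rose instead from 35.6 and 22.8 CPM to 711 and 478 CPM, by 4.35 ± 0.41 (adjusted p 0.0003), and Sall2 rose by 2.70 ± 0.40. Otx2, a factor of anterior epiblast and visceral endoderm, stood at 22.7 and 33.7 CPM in mESC and 18.0 and 0.793 CPM in diff_XEN, with library A near the mESC levels and library B far below them, and did not pass (adjusted p 0.302), although it was called without library A (-5.09).

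The transcription factors of extraembryonic endoderm rose almost throughout. Of 15 endoderm regulators 13 rose and none fell, with a median log2 fold change of 5.68. Gata4 stood at 4.65 and 12.7 CPM in mESC and 514 and 637 CPM in diff_XEN and rose by 6.05 ± 0.60 (adjusted p 0.000351). Gata6, which comes before Gata4 in the lineage, went from 3.29 and 8.72 CPM to 222 and 324 CPM and rose by 5.51 ± 0.57. The SRY-box factors Sox17 (0.576 and 2.58 CPM in mESC, 84.3 and 94.5 CPM in diff_XEN) and Sox7 (2.71 and 9.07 CPM, 109.8 and 155 CPM) rose by 5.84 ± 0.65 and 4.49 ± 0.61. Every one of these genes was lower at passage 33 than at passage 42, and the diff_XEN libraries lay far above both.

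Foxa2, a forkhead pioneer factor of endoderm, stood at 0.144 and 0.658 CPM in mESC and 55.6 and 56.9 CPM in diff_XEN and rose by 7.15 ± 0.84. Its relative Foxa1 rose from 0.0960 and 0.0822 CPM to 8.39 and 4.84 CPM, by 6.15 ± 0.55. Cited1, a transcriptional co-regulator, rose the most of the list, by 7.87 ± 0.34 (adjusted p 7.63e-05), with 0.552 and 0.384 CPM in mESC and 113 and 109 CPM in diff_XEN. Klf6 rose by 2.44 ± 0.25. Pdgfra, the receptor by which primitive endoderm is often sorted, stood at 4.85 and 12.9 CPM in mESC and 263 and 758 CPM in diff_XEN and rose by 5.85 ± 0.70. Dab2, the endocytic adaptor of the endoderm epithelium, reached 1978 and 2227 CPM from 17.0 and 65.3 CPM and rose by 5.68 ± 0.65. Hnf4a, a nuclear receptor of liver and visceral endoderm, was among the members that did not pass (log2 fold change 3.02 ± 1.12, adjusted p 0.0535). Its level was 13.7 and 1.62 CPM in mESC and 80.1 and 44.4 CPM in diff_XEN, with passage 33 above passage 42. Without passage 33 its log2 fold change was 5.29. A fit of the 4 libraries alone called Hnf4a higher (3.04, adjusted p 0.0201).

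Basement membrane and matrix genes gained the most in level. All 15 parietal endoderm genes rose, with a median of 5.72. By the change in CPM, the 6 largest gains among the genes the naming rule covers were Col4a1, Lama1, Lamc1, Sparc, Cubn and Lamb1. Col4a1, the first chain of type IV collagen, stood at 44.7 and 69.5 CPM in mESC and 10291 and 15716 CPM in diff_XEN and rose by 7.83 ± 0.44 (adjusted p 7.63e-05). Col4a2, its partner chain, went from 17.8 and 29.2 CPM to 4927 and 7410.1 CPM and rose by 8.03 ± 0.44. These 2 genes are neighbours that point away from each other, at chr8:11198423-11312826 on the minus strand and chr8:11312805-11449287 on the plus strand of GRCm38, and their annotated ends overlap. Sparc, a collagen-binding glycoprotein of Reichert's membrane, reached 7875 and 12219 CPM from 218 and 298 CPM, a rise of 5.28 ± 0.35.

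All 3 chains of laminin 111 rose. Lama1, the alpha chain, stood at 130.3 and 171 CPM in mESC and 8959 and 16282 CPM in diff_XEN and rose by 6.39 ± 0.60. Lamb1, the beta chain, stood at 167 and 172 CPM in mESC and 5602 and 9586 CPM in diff_XEN and rose by 5.49 ± 0.35. Lamc1, the gamma chain, was already at 519 and 592 CPM in mESC, reached 8267 and 14807 CPM and rose by 4.38 ± 0.35. Per length of exon, the level of Lamc1 was 3.72 and 4.14 times that of Lamb1 in mESC but 1.77 and 1.85 times in diff_XEN. The per-length level of Lama1 was 0.215 and 0.247 times that of Lamc1 in mESC but 0.926 and 0.94 times in diff_XEN. The per-length levels of Lama1 and Lamb1 were thus both closer to that of Lamc1 in diff_XEN. Lama1 and Lamb1 moved apart, with Lama1 at 0.799 and 1.02 times Lamb1 in mESC and 1.64 and 1.74 times in diff_XEN. For the 2 collagen chains the ratio of Col4a1 to Col4a2 per length moved little, from 2.22 and 2.11 to 1.85 and 1.88. These ratios were not tested. Together 9 basement membrane genes took 0.197% and 0.184% of counts in mESC and 5.10% and 7.66% in diff_XEN, so libraries A and B differed in this share.

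Other parietal markers rose from low levels. Plat, tissue plasminogen activator, stood at 0.888 and 0.795 CPM in mESC and 144 and 228 CPM in diff_XEN and rose by 7.78 ± 0.42 (adjusted p 7.63e-05), and Thbd, the thrombin receptor thrombomodulin, at 0.192 and 0.192 CPM in mESC and 13.8 and 11.4 CPM in diff_XEN with a rise of 6.01 ± 0.39. The enzymes that modify and fold collagen rose with their substrates. Of 12 tested members of that list 11 rose and none fell, with a median of 3.49. The prolyl 4-hydroxylase subunits P4ha1 (3.55), P4ha2 (4.92) and P4ha3 (5.89) and the lysyl oxidase Loxl2 (4.92) rose. P4ha2 went from 15.4 and 20.8 CPM to 456 and 638 CPM. Loxl3, a further lysyl oxidase, did not pass (0.65, adjusted p 0.425), but was called higher without passage 33 (2.04).

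Visceral endoderm genes rose in the same libraries. Of 21 tested members 17 rose and 1 fell, with a median of 6.0. Apoc2, Apoe and Apom lost their calls without passage 42 and without library A, where fewer members rose. More rose without passage 33 or without library B. In mESC, 6 of the 21 had fewer than 10 counts in both libraries, so these passed the filter on low counts through diff_XEN or the knockout libraries of the fit. Cubn, the scavenging receptor cubilin, stood at 28.6 and 71.2 CPM in mESC and 8127 and 8229.5 CPM in diff_XEN and rose by 7.36 ± 1.15 (adjusted p 0.00194, and 0.0544 without the filter on low counts). Lrp2, megalin, its partner in endocytosis, stood at 118 and 127 CPM in mESC and 4526 and 3149.9 CPM in diff_XEN and rose by 4.97 ± 0.30. Mttp, which loads lipid onto apolipoprotein B, went from 8.95 and 4.99 CPM to 429 and 465 CPM and rose by 6.0 ± 0.37, and Rbp4, the plasma carrier of retinol, rose by 5.01 ± 0.49. Ihh, a Hedgehog ligand of visceral endoderm, stood at 0.408 and 0.329 CPM in mESC and 39.1 and 44.3 CPM in diff_XEN and rose by 6.80 ± 0.56. In each of these the groups lay far apart and libraries A and B were alike to within a factor below 3. They were named for the smallest p of the list or, for Cubn, for the gain in CPM, a choice that favours this pattern.

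Genes of secreted yolk sac proteins started from few or no counts. Afp, alpha-fetoprotein, had 0 counts in both mESC libraries and 44.5 and 10.6 CPM in diff_XEN, at least 720-fold higher when mESC is set at 3 counts in the group as a whole (adjusted p 0.00425, and 0.129 without the filter on low counts). Ttr, transthyretin, had 2 counts in mESC and 110.3 and 59.2 CPM in diff_XEN, a ratio of 3318 with a 95% counting interval of 918 to 27403. Such bounds and intervals cover counting error only. Hnf4a, Fgg and Vil1 did not pass. Fgg, a fibrinogen chain, stood at 0.648 and 0.795 CPM in mESC and 0.812 and 0.547 CPM in diff_XEN with overlapping groups. Vil1, a microvillus protein, stood at 2.95 and 2.41 CPM in mESC and 19.4 and 4.57 CPM in diff_XEN (adjusted p 0.0543). Its log2 fold change was 2.88 without library B. In a fit of the 4 libraries alone Vil1 was called (2.18, adjusted p 0.0284). Trf, transferrin, was the member that fell, by 2.83 ± 0.80, from low levels of 0.984 and 0.603 CPM and was named after its values were seen. Trf was not called when passage 33, library A or library B was left out, and Fga was not tested.

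Lysosomal genes rose along with the endocytic receptors. Of 17 tested members 16 rose and none fell, with a median of 3.38, and their summed level went from 1422 and 1668 CPM in mESC to 17830 and 16160 CPM in diff_XEN. Lgmn, the asparaginyl protease legumain, stood at 58.8 and 77.9 CPM in mESC and 2573 and 2546 CPM in diff_XEN and rose by 5.23 ± 0.33 (adjusted p 9.64e-05). The cathepsins Ctsa (41.2 and 47.2 CPM in mESC, 629.7 and 646 CPM in diff_XEN) and Ctsz (38.5 and 39.1 CPM, 698 and 590.4 CPM) rose by 3.85 ± 0.23 and 4.05 ± 0.26. Hexa, the alpha subunit of hexosaminidase, stood at 32.9 and 31.8 CPM in mESC and 363 and 422 CPM in diff_XEN and rose by 3.6 ± 0.22.

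Epithelial and mesenchymal adhesion genes rose side by side. Of 20 members 13 rose and none fell, with a median of 2.70. Krt18, a keratin of simple epithelia, stood at 14.1 and 8.09 CPM in mESC and 610.0 and 350.3 CPM in diff_XEN and rose by 5.43 ± 0.45. Cdh11, a mesenchymal cadherin, had 3 counts in mESC and 93.1 and 59.3 CPM in diff_XEN, a ratio of 1987 with a 95% counting interval of 680 to 9640. Zeb2, a zinc finger repressor of E-cadherin, rose by 4.84 ± 0.38. E-cadherin itself, Cdh1, stood at 463 and 522 CPM in mESC and 691 and 445 CPM in diff_XEN, with overlapping groups and a log2 fold change of 0.21 ± 0.35 (adjusted p 0.639). Epcam (0.31), Zeb1 (-0.58) and Vim, vimentin (1.02, adjusted p 0.0649), did not pass either, though Vim was called without library B (1.56). Of 15 integrin chains and matrix receptors 8 rose and none fell, among them Itga5 (2.40), Itgav (2.09), Itgb1 (1.47) and Itgb8. The number that rose varied with the library left out. Itgb8 had 1 count in mESC, and its ratio was 99.9 with a 95% counting interval of 17.5 to 3988. Itga6, a laminin-binding chain, stood at 248 and 311 CPM in mESC and 138 and 193 CPM in diff_XEN and did not pass (-0.76, adjusted p 0.0967).

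**Figure D3:**
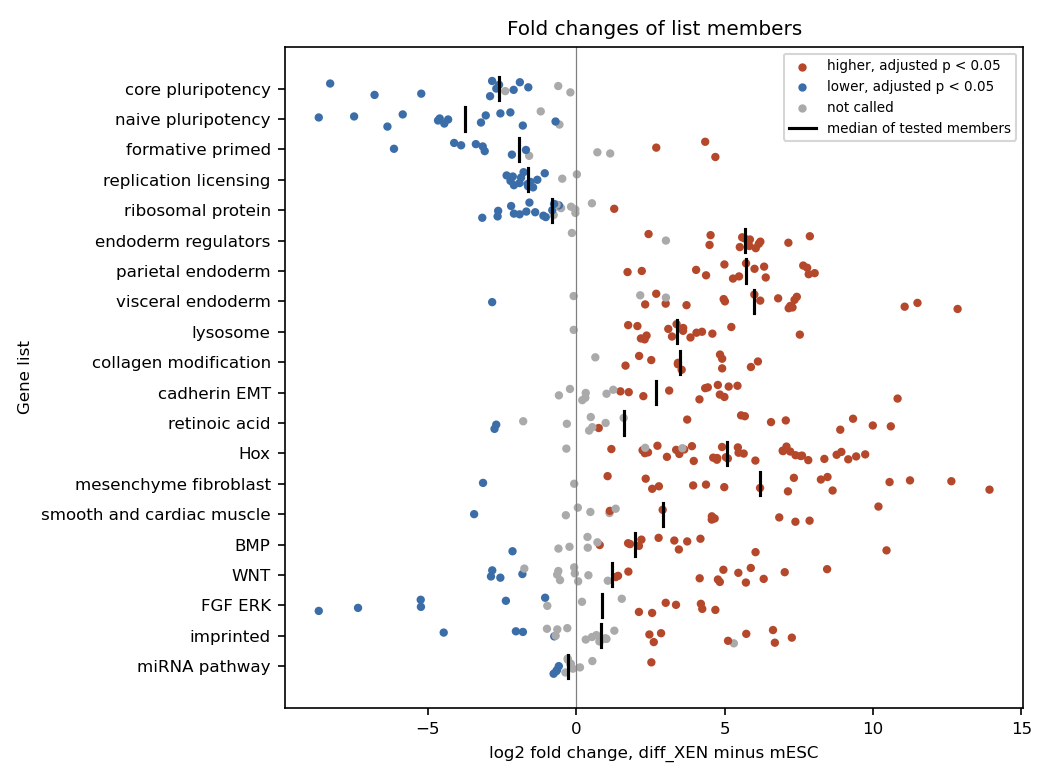
Log2 fold change (diff_XEN minus mESC) of each tested member of 20 gene lists, coloured by call, with the median of tested members as a vertical line. The medians run from -3.76 for naive pluripotency to 6.19 for the mesenchyme and fibroblast list.

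Retinoic acid was part of the protocol, and genes known to respond to it carried some of the largest rises. Of 19 retinoid pathway genes 10 rose and 2 fell (1 without library B), with a median of 1.6. Rarb, the receptor gene that retinoic acid induces through its own promoter, stood at 0.0720 and 0.192 CPM in mESC and 53.5 and 72.8 CPM in diff_XEN and rose by 8.90 ± 0.44 (adjusted p 7.63e-05). Dhrs3, which reduces retinaldehyde back to retinol, went from 0.696 and 1.04 CPM to 116 and 116 CPM and rose by 7.06 ± 0.34. Meis1 and Meis2, homeobox partners of Hox proteins, rose by 5.68 ± 0.29 and 5.56 ± 0.35. Cyp26a1 and Cyp26b1, the enzymes that degrade retinoic acid, were named after their values were seen. Cyp26a1 stood at 0.120 and 0.959 CPM in mESC and 651 and 993 CPM in diff_XEN, with a log2 fold change of 10.60 ± 0.84 (adjusted p 0.000161), and Cyp26b1 at 0.336 and 0.0822 CPM in mESC and 152 and 293 CPM in diff_XEN, with 9.99 ± 0.63 (adjusted p 9.64e-05). The receptor Rara did not pass (0.44, adjusted p 0.133), nor did the binding protein Crabp2 (-0.31, adjusted p 0.638). Among the members that fell was the receptor Rarg (-2.75, and -2.38 without library B), which was named after its values were seen. Stra8, a retinoid-induced germ cell gene, stood at 9.65 and 129 CPM in mESC and 28.2 and 12.1 CPM in diff_XEN, where passage 42 lay above all other libraries, and did not pass (adjusted p 0.17), but was called lower without passage 33 (-2.66).

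The promoters of Cyp26a1 and Rarb are shown because both carry, just before the start site, a pair of retinoic acid receptor half-sites spaced by 5 bases (DR5). Capitals mark the match in each, and both windows come from RefSeq on GRCm38.p6 and end just before the start site. The Cyp26a1 window is chr19:37697716-37697807 on the plus strand, and the Rarb window is chr14:16575477-16575588 on the minus strand.
Cyp26a1: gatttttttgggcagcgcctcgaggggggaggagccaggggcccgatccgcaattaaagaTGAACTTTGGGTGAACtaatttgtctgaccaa
Rarb: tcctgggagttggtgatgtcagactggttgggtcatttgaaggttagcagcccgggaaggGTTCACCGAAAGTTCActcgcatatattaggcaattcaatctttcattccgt
The match lies 32 to 17 bases before the start site of Cyp26a1, on the opposite strand, and 52 to 37 bases before that of Rarb. The letters searched on both strands were GTTCA or GGTCA, any 6 bases and again GTTCA or GGTCA, where the last of the 6 bases is the first base of the second half-site, and 24 of 12258 promoters (0.196%) held one. Among genes called higher 6 of 3617 did (0.166%) and among those called lower 4 of 3017 (0.133%). The endoderm GATA letters AGATAA or TGATAA stood in 12.6% of all promoters searched, 13.5% of those of higher genes and 11.8% of those of lower genes.

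Hox genes, the homeobox factors that set position along the body axis, were raised from near silence. Of 38 tested Hox genes 35 rose and none fell, with a median of 5.08, or 4.96 with genes lacking mESC counts set at their bound. In mESC, 29 of the 38 had fewer than 10 counts in both libraries, so these passed the filter on low counts through diff_XEN or the knockout libraries of the fit. Their summed level was 8.71 and 14.97 CPM in mESC and 216.5 and 166.6 CPM in diff_XEN. Hoxa5 had 2 counts in mESC and 18.9 and 14.8 CPM in diff_XEN, a ratio of 661 with a 95% counting interval of 182 to 5461. Hoxb1, a hindbrain gene, had 0 counts in mESC and 4.46 and 0.683 CPM in diff_XEN, at least 67.3-fold higher, and Hoxb6 had 0 counts and 3.41 and 2.95 CPM, at least 82.9-fold higher.

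By cluster, all 11 tested genes of the Hoxa cluster, all 10 of Hoxb and all 9 of Hoxc rose, and 5 of 8 of Hoxd. Summed levels in diff_XEN were 111.5 and 91.5 CPM for Hoxa, 68.2 and 40.0 CPM for Hoxb, 26.6 and 22.5 CPM for Hoxc and 10.2 and 12.6 CPM for Hoxd. Hoxd1 (0.360 and 0.219 CPM in mESC and 0.352 and 0.109 CPM in diff_XEN), Hoxd3 (0 and 0 CPM in mESC and 0 and 0.0820 CPM in diff_XEN) and Hoxd4 (0.0720 and 0 CPM in mESC and 0.162 and 0.246 CPM in diff_XEN) did not pass, though Hoxd4 was called without passage 33 (5.71). The posterior genes Hoxa13 (3.06), Hoxb13 (5.47), Hoxc13 (1.19) and Hoxd13 (2.74) rose too. Calls of Hoxc10, Hoxc11, Hoxc12, Hoxc13 and Hoxd11 were lost in at least 1 of the fits without a library.

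**Figure D4:**
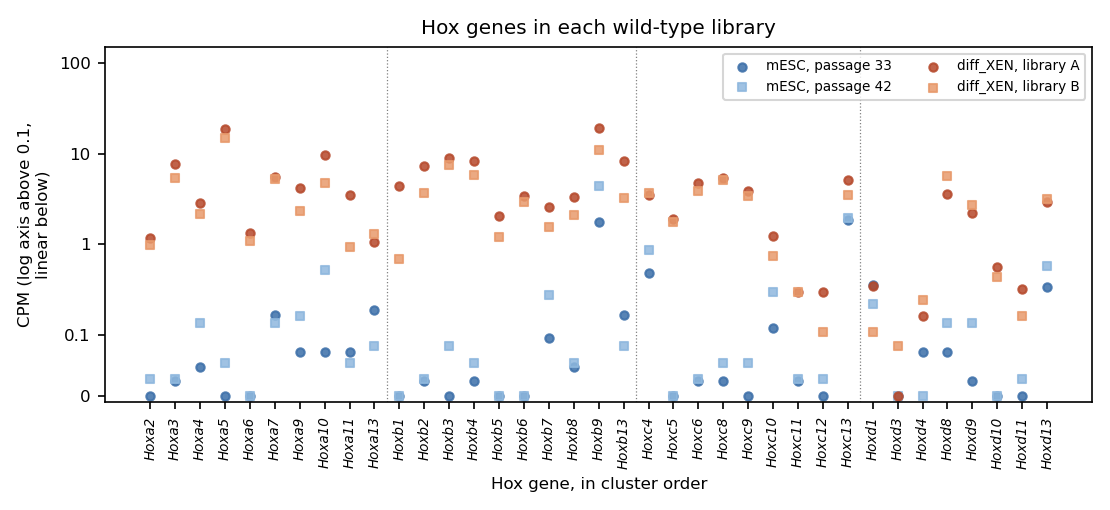
CPM of 37 Hox genes in the 4 wild-type libraries, ordered by cluster from Hoxa to Hoxd, on an axis that is logarithmic above 0.1 and linear below. Most mESC points lie below 1 CPM, and the diff_XEN points of Hoxa and Hoxb lie mostly between 1 and 20 CPM.

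The time course of the series gives independent wild-type libraries of the same protocol at days 1 and 4. The course was fitted and scaled apart from the endpoint, over its 16 libraries, which include AGO2 knockout ones. In the wild-type libraries the Hoxa and Hoxb clusters were already present at day 1. Their summed levels in the 2 day 1 libraries were 154.3 and 116.7 CPM for Hoxa and 123.4 and 161.4 CPM for Hoxb. At day 4 they were 121.9 and 134.7 CPM and 143.5 and 163.3 CPM. Between day 1 and day 4, 2 of 11 Hoxa genes and 0 of 10 Hoxb genes rose, and none fell. Hoxc and Hoxd stood at 6.17 and 5.22 CPM and at 3.41 and 3.28 CPM at day 1, and at 59.4 and 63.8 CPM and 20.5 and 20.1 CPM at day 4, and all 9 Hoxc and 7 of 8 Hoxd genes rose. At the level of all genes, 26.9% rose and 21.6% fell from day 1 to day 4 (8588 of 17694 called, 48.5%). Hoxc8 was at 0 CPM in both day 1 libraries and at 8.17 and 7.94 CPM at day 4. Cyp26a1 was at 259 and 227 CPM at day 1 and at 288 and 247 CPM at day 4, with no call between them (adjusted p 0.861), whereas Rarb went from 11.9 and 13.9 CPM to 36.2 and 39.9 CPM and rose by 1.56 ± 0.23.

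Across 16270 genes tested in both comparisons, which share no library, Spearman's rho between the endpoint and the day 4 minus day 1 log2 fold changes was 0.731 and Pearson's r 0.774, given as a description over genes. Of genes called in both fits, 3099 rose in both (69.9% of the endpoint calls and 68.8% of the course calls) and 2357 fell in both (55.9% and 67.5%), whereas 60 rose at the endpoint and fell in the course and 67 did the reverse. Both comparisons moved Gata4 (4.33 in the course), Col4a1 (4.75), Cubn (5.58) and Tnc (11.22) up and Sox2 (-2.73), Nanog (-2.13) and Pou5f1 (-3.41) down. Klf4 was called at the endpoint only (-0.70, adjusted p 0.223 in the course), and whether the comparisons differ for it was not tested. Foxa1, which rose at the endpoint, had a course log2 fold change of -0.53 (adjusted p 0.0632).

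**Figure D5:**
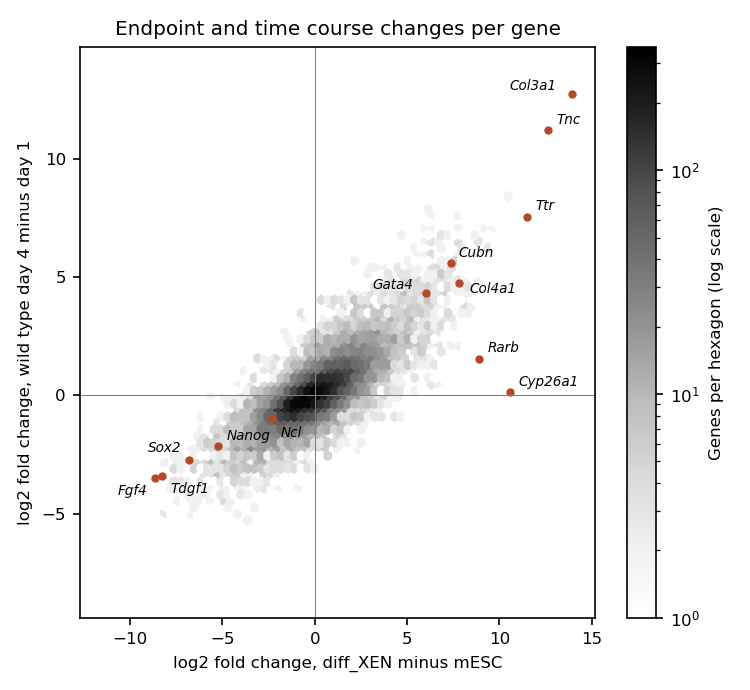
Log2 fold change per gene of diff_XEN minus mESC (x axis) against wild-type day 4 minus day 1 (y axis), with shading for the number of genes per hexagon and 13 genes marked. Col3a1 and Tnc lie at the upper right and Fgf4 and Tdgf1 at the lower left, while Cyp26a1 (10.60 and 0.14) lies near 0 on the y axis.

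Markers of other cell types were present as well. Of 19 mesenchyme and fibroblast genes 17 rose and 1 fell, though fewer rose with any 1 library left out and the fall was not called without library B. Their median was 6.19, or 4.88 with genes lacking mESC counts at their bound. Their summed level was 981 and 1695 CPM in mESC and 2785 and 1655 CPM in diff_XEN, a sum carried mostly by Fn1, fibronectin, which did not pass (922 and 1653 CPM in mESC and 1504 and 955 CPM in diff_XEN). Col3a1, a fibrillar collagen of connective tissue, had 1 count in mESC and 314 and 198 CPM in diff_XEN, a ratio of 20059 with a 95% counting interval of 3600 to 792310. Tnc, tenascin C, had 3 counts and 294 and 240.4 CPM, a ratio of 6966 (2383 to 33780). Col1a2 went from 0.384 and 0.274 CPM to 209.6 and 57.2 CPM and rose by 8.64 ± 0.77, and Dcn, decorin, from 0 counts to 11.6 and 6.51 CPM, at least 236-fold. Library A was higher than library B for these 4 genes. Postn, Lum, Twist2 and Prrx1, markers of this list, were also at 0 counts in mESC. In mESC, 8 of the 19 had fewer than 10 counts in both libraries. These passed the filter on low counts through diff_XEN or the knockout libraries of the fit. The part of such cells in the comparison was not tested.

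Smooth and cardiac muscle genes rose in part. Of 15 members 9 rose and 1 fell (0 without passage 33, library A or library B), with a median of 2.91 and a summed level of 45.4 and 20.4 CPM in mESC against 1315 and 589 CPM in diff_XEN. Tagln, transgelin, stood at 2.18 and 0.411 CPM in mESC and 415 and 198 CPM in diff_XEN and rose by 7.86 ± 0.82, and Myh11, smooth muscle myosin, rose from 0.480 and 0.384 CPM to 70.8 and 29.4 CPM, by 6.84 ± 0.58. Hand2, a factor of heart and limb mesenchyme, had 0 counts in mESC and 5.14 and 3.53 CPM in diff_XEN, at least 113-fold higher. Cardiac genes were at low levels. Actc1, cardiac actin, reached 0.839 and 0.547 CPM, and Tnnt2 (1.15 and 0.0822 CPM in mESC and 0.677 and 0.301 CPM in diff_XEN), Tbx5 and Hand1 did not pass.

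Primitive streak and embryonic endoderm genes were low. Only 9 of 14 were tested, 3 rose and none fell, and the list summed to 20.8 and 35.2 CPM in mESC and to 127 and 28.3 CPM in diff_XEN. T, Gsc, Mesp1, Fgf8 and Cer1 were not tested. Eomes (3.31 and 6.72 CPM in mESC and 12.4 and 9.79 CPM in diff_XEN) and Mixl1 (0.432 and 1.32 CPM in mESC and 1.22 and 0.355 CPM in diff_XEN) did not pass, though Eomes was called without passage 42 (1.75). Hhex, a factor of anterior visceral endoderm and liver, rose by 1.72 ± 0.51, Lhx1 by 5.5 ± 1.49 and Wnt3 by 3.09 ± 1.05. Library A was higher than library B for all 3, and each lost its call when library A (log2 fold changes 0.80, 1.95 and 2.26), passage 33 or passage 42 was left out. Lefty1, a Nodal antagonist, stood at 6.05 and 14.8 CPM in mESC and 59.4 and 1.15 CPM in diff_XEN, with A far above B, and did not pass.

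Neural, trophoblast and blood markers showed mixed changes, where 27.2% of all genes tested rose and 25.3% fell. Of 10 tested neural genes 4 rose and 5 fell, or 2 without library B, with a median of -1.02. Stmn2, stathmin 2, fell from 347 and 346 CPM to 4.98 and 2.90 CPM, by 6.46 ± 0.34, while Nes, nestin, rose by 1.63 ± 0.30 and Pax6 by 2.74 ± 0.51. Of 10 tested trophoblast genes 3 rose and 3 fell, and with 1 library left out 1 to 3 rose and 1 to 2 fell, with Gata3 higher (0.120 and 0.0274 CPM in mESC and 9.31 and 5.66 CPM in diff_XEN) and Tfap2c lower (36.2 and 40.9 CPM in mESC and 1.00 and 0.984 CPM in diff_XEN). Prl3d1, Tpbpa and Prl2c2, genes of differentiated trophoblast, were not tested. Of 9 tested blood and endothelial genes 4 rose and 5 fell, but 2 rose without library A and 2 fell without library A or without library B. Runx1 stood at 1.08 and 3.97 CPM in mESC and 76.3 and 72.7 CPM in diff_XEN and rose by 4.89 ± 0.58, Pecam1 fell by 4.67 ± 0.58, and the embryonic globins and Ptprc were not tested. Of 12 germ cell genes 8 fell and none rose, but 5 fell without passage 33 or without library A and 3 without library B, among them Tdrd12 (67.5 and 41.7 CPM in mESC and 0.649 and 0.683 CPM in diff_XEN) and Dppa3, which had 3 counts left in diff_XEN. None of the 4 tested members of the 2-cell-like list passed, with the passage 42 library lowest for each, although Zscan4c (5.32) and Zscan4d (5.2) were called higher without passage 33.

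Genes of Nodal signalling were called in both directions, near the shares over all genes tested (27.2% higher and 25.3% lower). In the Nodal and activin list 5 of 16 rose and 3 fell (5 without library A), with a median of 0.47. Fst, follistatin, which binds activin, rose from 1.25 and 3.18 CPM to 74.8 and 280.4 CPM, by 6.33 ± 0.80 (adjusted p 0.000846). Inhba, which encodes the subunit of activin A, had 0 counts in mESC and 2.76 and 1.23 CPM in diff_XEN, at least 52.1-fold higher. Nodal itself stood at 31.6 and 11.3 CPM in mESC and 10.1 and 0.519 CPM in diff_XEN, with library A close to passage 42 and library B far lower, and did not pass (adjusted p 0.151). Lefty2 had 26.0 and 101 CPM in mESC and 61.7 and 0.383 CPM in diff_XEN and did not pass either. Without library A both were called lower, Nodal at -5.31 and Lefty2 at -7.29.

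Of 18 BMP pathway genes 12 rose and 1 fell, with a median of 1.97. Bmp2, a secreted ligand, stood at 0.240 and 0.603 CPM in mESC and 30.3 and 25.2 CPM in diff_XEN and rose by 6.04 ± 0.51, Bmp6 rose from 0.984 and 1.62 CPM to 14.3 and 14.3 CPM, by 3.46 ± 0.44, and Bmp5 from 0 counts to 5.82 and 4.65 CPM, at least 136-fold. Id2, a target of BMP signalling, rose by 1.82 ± 0.25. Bmp4, the ligand of mESCs and the member that fell, was named after its values were seen, with 53.0 and 41.9 CPM in mESC and 15.0 and 6.48 CPM in diff_XEN (-2.14 ± 0.40). The receptor genes Bmpr1a (0.39) and Bmpr1b (-0.22) did not pass, though Bmpr1a was called without passage 42 (0.71).

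The FGF list held rises and falls. Of 16 tested members 7 rose and 6 fell, with a median of 0.87. The receptors Fgfr2 (11 and 8.61 CPM in mESC and 118 and 84.5 CPM in diff_XEN) and Fgfr3 (2.59 and 1.95 CPM in mESC and 34.2 and 49.5 CPM in diff_XEN) rose by 3.36 ± 0.27 and 4.20 ± 0.37. Spry2, a feedback inhibitor of the pathway, fell by 2.37 ± 0.29, alongside the fall of the ligand Fgf4. Fgfr1 stood at 66.0 and 41.8 CPM in mESC and 38.1 and 16.9 CPM in diff_XEN and did not pass (adjusted p 0.0864), but was called lower without library A (-1.63). Of 26 tested WNT genes 13 rose and 4 fell, with a median of 1.20. Wnt5a and Wnt11, ligands often linked to non-canonical signalling, rose by 4.84 ± 0.51 and 4.77 ± 0.44, Rspo3, an enhancer of WNT signalling, by 5.88 ± 0.60, and the receptor Fzd2 by 4.16 ± 0.42. Axin2, a common readout of canonical signalling, stood at 10.7 and 3.84 CPM in mESC and 4.87 and 4.46 CPM in diff_XEN and did not pass (adjusted p 0.277), but was called lower without passage 42 (-1.19).

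Genes of DNA replication fell together. Of 15 replication licensing genes 13 fell and none rose, with a median of -1.64 and summed levels of 3814 and 5016 CPM in mESC against 1365 and 1376 CPM in diff_XEN. Mcm10, a replication initiation factor, stood at 257 and 263 CPM in mESC and 55.7 and 56.6 CPM in diff_XEN and fell by 2.21 ± 0.20 (adjusted p 0.000243). Orc1, of the origin recognition complex, fell by 1.86 ± 0.22, Gins1 by 2.34 ± 0.27 and Pcna, the sliding clamp, by 2.13 ± 0.26. Cdc6 (-0.47) and Gins2 (0.02) did not pass.

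Calls among the G1 genes stood near the shares over all genes tested, of which 27.2% rose and 25.3% fell. Of 21 G1 genes 6 rose and 6 fell, or 3 without passage 42, library A or library B, with a median of 0.03. Ccnd1, cyclin D1, went from 117 and 109.6 CPM to 16.4 and 8.50 CPM and fell by 3.18 ± 0.34, whereas Ccnd2, cyclin D2, went from 8.66 and 24.1 CPM to 265 and 291 CPM and rose by 4.08 ± 0.54. Ccne1, cyclin E1, fell by 2.59 ± 0.27. Cdkn2b, an inhibitor of Cdk4 and Cdk6, stood at 1.06 and 0.302 CPM in mESC and 31.0 and 13.2 CPM in diff_XEN and rose by 4.99 ± 0.62. Cdk4 (324 and 335 CPM in mESC and 356 and 316 CPM in diff_XEN) and Rb1 (-0.10) did not pass, with Cdk4 overlapping between groups.

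Of 9 DNA methylation genes 5 fell, or 3 without library A or without library B, and 1 rose. Tet1, which oxidises methylcytosine, stood at 946 and 469.6 CPM in mESC and 29.1 and 36.0 CPM in diff_XEN and fell by 4.44 ± 0.44, Tet2 fell by 2.22 ± 0.29, and Tet3 rose from 15.7 and 6.91 CPM to 64.7 and 88.2 CPM, by 2.76 ± 0.40. Uhrf1, the recruiter of the maintenance methyltransferase, fell by 1.89 ± 0.21. Dnmt1 (-0.68) and Tdg (-1.21) were called but lost their calls in at least 1 fit without a library. Dnmt3a (-0.07), Dnmt3b (391 and 109 CPM in mESC and 258 and 127 CPM in diff_XEN) and Dnmt3l (422 and 98.8 CPM in mESC and 96.7 and 118 CPM in diff_XEN) did not pass, and passage 33 lay above passage 42 for both Dnmt3b and Dnmt3l. Without the passage 42 library Dnmt3l was called (-1.97).

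Of 16 polycomb genes 7 fell and 4 rose. Eed, a core subunit of PRC2, stood at 367 and 443 CPM in mESC and 57.9 and 65.0 CPM in diff_XEN and fell by 2.72 ± 0.23, and the PRC2 partners Mtf2 and Jarid2 fell by 3.08 ± 0.26 and 2.60 ± 0.23. Ezh1 (0.75) and Rnf2 (-0.75) did not pass, but Ezh1 was called without library A (1.09) and Rnf2 without passage 33 (-1.14).

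Of 25 tested imprinted genes 8 rose and 4 fell (2 without library B), with a median of 0.84. Peg3, a zinc finger gene expressed from the paternal allele, stood at 62.3 and 30.0 CPM in mESC and 1607 and 1594 CPM in diff_XEN and rose by 5.12 ± 0.40, and its neighbour Zim1 rose by 5.73 ± 0.48. Dlk1, a Notch-like ligand, rose from 0.600 and 0.493 CPM to 115 and 54.6 CPM, by 7.26 ± 0.47, while Meg3 of the same domain (144 and 119 CPM in mESC and 152 and 228 CPM in diff_XEN) did not pass. Airn, the long non-coding RNA antisense to Igf2r, rose by 6.63 ± 0.53, and reads of the 2 genes may be shared. H19 stood at 2.64 and 1.26 CPM in mESC and 120.1 and 35.8 CPM in diff_XEN with a log2 fold change of 5.31 ± 1.98 and did not pass (adjusted p 0.055), although it was called in a fit of the 4 libraries alone (adjusted p 0.001).

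Most genes of the microRNA machinery did not pass the test. Of 13 genes 4 fell and 1 rose, with a median of -0.28, but 0 fell without library A or without library B, 2 fell without passage 33 and 2 rose without library A. Drosha and Dicer1, the nucleases that release microRNAs, had log2 fold changes of -0.76 ± 0.21 and -0.64 ± 0.20, and the exporter Xpo5 of -0.67 ± 0.21. Each of these 3 lost its call when library A or library B was left out (without library A, Dicer1 was at -0.48, adjusted p 0.203). Ago4 rose from 1.13 and 1.34 CPM to 4.52 and 9.81 CPM, by 2.53 ± 0.49. Dgcr8 (-0.36), Ago3 (-0.18) and Ago2 did not pass.

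The 4 microRNAs printed here, from clusters active in mESCs, share a seed, shown in capitals (bases 2 to 8). They are printed since genes reported as targets of that seed family were among those higher in diff_XEN. The mature sequences are from RefSeq on GRCm38.p6, and mature microRNAs were not measured in these libraries.
mmu-miR-291a-3p: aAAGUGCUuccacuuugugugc
mmu-miR-294-3p: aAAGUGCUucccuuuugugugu
mmu-miR-295-3p: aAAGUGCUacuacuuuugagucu
mmu-miR-302b-3p: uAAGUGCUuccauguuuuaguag
Of 10 genes reported as targets of this family 7 rose and none fell, with a median of 2.00, and without passage 33 Ei24 was called lower (-0.67). Nr2f2, an orphan nuclear receptor, went from 0.0960 and 0.110 CPM to 25.6 and 29.0 CPM and rose by 8.01 ± 0.36 (adjusted p 7.63e-05). Tgfbr2, the type II receptor for TGF-beta, rose by 5.32 ± 0.61, Rhoc by 3.41 ± 0.24 and Akt1 by 2.98 ± 0.32. Rbl2 (15.4 and 7.54 CPM in mESC and 11 and 13.5 CPM in diff_XEN), Casp2 (-0.18) and Ei24 (-0.52) did not pass. Of 12 genes reported as let-7 targets 4 rose and 4 fell, with Lin28b (-4.00), Hmga1 (-2.84) and Myc (-2.89) lower and Ccnd2 higher.

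Reads at the miR-290 hairpin genes were few, and these loci were named after their values were seen. Mir294, on chromosome 7, stood at 5.09 and 4.17 CPM in mESC and at 0.108 and 0.137 CPM in diff_XEN, and fell by 5.2 ± 0.60 (adjusted p 0.000949). Mir293 fell by 4.17 ± 0.56, Mir295 by 2.63 ± 0.54 and Mir291a by 3.45 ± 0.98 (adjusted p 0.0213). Mir292 fell by 3.45 ± 0.98 (adjusted p 0.0252). Mir291b stood at 5.30 and 0.630 CPM in mESC and at 0.216 and 0.711 CPM in diff_XEN, with overlapping groups, and did not pass (adjusted p 0.0757). Another annotated gene overlaps these loci on the opposite strand, and reads in polyadenylated RNA do not measure the mature microRNA.

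Part of the ribosomal and mitochondrial transcripts fell. Of 23 ribosomal protein genes 14 fell and 1 rose (0 rose without passage 42, library A or library B, and 2 without passage 33), with a median of -0.80, and their summed level was 12280 and 13530 CPM in mESC against 7992 and 7118 CPM in diff_XEN. Rpl3 (-3.16), Rpl5 (-2.65), Rpl10 (-1.90) and Rpl30 (-2.63) fell, whereas Rplp0 (415 and 369 CPM in mESC and 441 and 327 CPM in diff_XEN) and Rps19 (0.53) did not pass, though Rps19 was called higher without passage 33 (0.90). These genes have many near-identical processed pseudogenes, so their counts are uncertain. Of 13 mitochondrial messages 6 fell (3 without library A) and none rose, with mt-Atp6 at 56.6 and 75.9 CPM in mESC and 10.1 and 12.6 CPM in diff_XEN, while the abundant mt-Co1 (13099 and 14291 CPM in mESC and 9399 and 12946 CPM in diff_XEN) did not pass. Mitochondrial genes made up 3.48% and 2.93% of counts in mESC and 1.94% and 2.64% in diff_XEN.

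Metabolic lists were divided, where 27.2% of all genes tested rose and 25.3% fell. Of 17 glycolysis and hypoxia genes 7 fell, or 4 without library A or without library B, and 2 rose. Pdk1, which holds pyruvate away from mitochondria, fell by 2.89 ± 0.38 and Pfkp, a phosphofructokinase, by 1.49 ± 0.20, while the liver-type Pfkl rose by 1.76 ± 0.30 and Vegfa by 1.33 ± 0.23. Of 13 threonine, glycine and serine genes 5 fell and 2 rose (0 rose without passage 33 or without library A), with Shmt1 (-2.15), Mthfd1 (-1.71), Amt (-2.64) and Gldc (-1.92), of one-carbon metabolism, lower. Of 17 cholesterol synthesis genes 3 rose and 3 fell, and with 1 library left out 1 to 3 rose and 1 to 5 fell. Insig1, a brake on that pathway, had 46.3 and 153 CPM in mESC and 307 and 548 CPM in diff_XEN and rose by 2.10 ± 0.61, and Idi1 fell by 2.86 ± 0.54. Insig1 was not called without passage 33, without library B or without the filter on low counts.

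The calls of secretory stress genes varied with the libraries used. Of 12 members 8 rose and none fell, with a median of 0.94, but 4 rose without passage 33 or without library A and 3 without library B. Calr, the chaperone calreticulin, stood at 556 and 631 CPM in mESC and 2242 and 2271 CPM in diff_XEN and rose by 1.93 ± 0.22, Ddit3 by 1.66 ± 0.27 and Herpud1 by 1.75 ± 0.36. Atf4 (-0.63) did not pass, but was called without passage 42 (-0.86). Of 18 interferon and MHC class I genes 11 rose and 3 fell, with a median of 2.04. B2m, the light chain of MHC class I, went from 7.29 and 20.6 CPM to 253 and 252 CPM and rose by 4.18 ± 0.48, and the heavy chain H2-D1 rose by 3.92 ± 0.40. Ifit1, an interferon-induced gene, rose by 7.76 ± 0.81, with library A above B (17.4 and 6.45 CPM), whereas Ifitm1, a surface marker of early germ cells and mESCs, fell from 125 and 67.3 CPM to 1.98 and 0.738 CPM, by 6.14 ± 0.56. Of 12 immediate early and stress genes 4 rose and 1 fell, with Jun higher (4.40) and Egr1 lower (-1.59).

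Among the genes ranked highest by fitted log2 fold change, 5 more had no counts in mESC, so that their rank depends on the fit and only a bound can be given. Svep1, a large adhesion protein, had 0 counts in mESC and 24.5 and 17.9 CPM in diff_XEN, at least 552-fold higher. Adam12, a membrane metalloprotease, had 18.6 and 16.9 CPM (at least 463-fold) and Pcdh7, a protocadherin, 18.2 and 12.3 CPM (at least 397-fold), again from 0 counts. Ugt1a7c, a glucuronosyltransferase of detoxification, reached 14.9 and 26.8 CPM (at least 541-fold), in a locus whose transcripts share exons, so its counts are uncertain. Serpina10, a plasma protease inhibitor, had 2.60 and 19.7 CPM (at least 289-fold), with library B several times library A.

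Among the largest fitted falls, Fgf4 and Tdgf1 were joined by genes of other kinds. Khdc3, a maternal effect gene, stood at 15.4 and 33.8 CPM in mESC and 0.108 and 0.0273 CPM in diff_XEN and fell by 8.42 ± 0.82. Nphs1, nephrin of the kidney filter, went from 51.4 and 62.3 CPM to 0.0812 and 0.246 CPM and fell by 8.41 ± 0.50, and Pipox, a peroxisomal oxidase, from 53.6 and 102 CPM to 0.433 and 0.301 CPM, by 7.71 ± 0.54. Chrna9, a nicotinic receptor subunit, had 13.1 and 7.4 CPM in mESC and 0 counts in diff_XEN, at least 256-fold lower. Tgm3, a transglutaminase, had 3 counts left in diff_XEN. Lrrc34 (-7.67), Lrrc31 (-7.44) and Cpsf4l (-7.66) completed the 10, and 2 predicted genes or pseudogenes were passed over.

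The largest losses in CPM came from abundant housekeeping transcripts. Ncl, nucleolin, stood at 4230.5 and 8541 CPM in mESC and 1092 and 1499.9 CPM in diff_XEN and fell by 2.30 ± 0.37 (adjusted p 0.0022), with passage 42 above passage 33. Npm1, nucleophosmin, likewise nucleolar, went from 2571 and 4337 CPM to 402 and 535 CPM and fell by 2.88 ± 0.32. The chaperone Hsp90aa1 stood at 3524 and 3666 CPM in mESC and 419 and 503 CPM in diff_XEN and fell by 2.96 ± 0.24, whereas its relative Hsp90ab1 (6477 and 7223 CPM in mESC and 3739.5 and 3264 CPM in diff_XEN) fell by 0.97 ± 0.24 and was not called without library B (-0.84, adjusted p 0.0849). Pabpc1, the poly(A)-binding protein, fell by 2.08 ± 0.27 and Rpl4 by 1.02 ± 0.22. The levels of the groups did not overlap for these 6 genes, which the naming rule required and which held for 77.7% of genes tested.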

How the data were processed

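The deposited files hold whole-number read counts per Ensembl gene (43629 genes). Per the submitters' processing notes the reads were aligned with STAR 2.5.0c to mm10 and counted with featureCounts 1.4.5-p1; the annotation release and the strand setting are not given in the sources used here, so reads of genes that overlap on opposite strands, such as 92 of the 229 genes named by rule, may be shared. The mESC counts came from one file per library and the diff_XEN counts from a table of the series, in which 3 further columns of other samples were not analysed here. Gene symbols and positions were matched for 42462 and 42548 identifiers, from GENCODE vM21 on GRCm38.

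Differences were fitted with edgeR 4.0.16 (R 4.3.3): TMM scaling, its default expression filter by group, robust quasi-likelihood test of group means over 6 libraries (with 2 AGO2 knockout diff_XEN libraries, which share the estimate of spread) and Benjamini-Hochberg adjustment over all genes tested, calling genes at 0.05. The standard error is the log2 fold change divided by the root of the F statistic. Day 4 minus day 1 of the wild type was fitted over the 16 libraries of the time course, AGO2 knockout ones included, which share the scaling, filter and estimate of spread. Depth was 36427340 to 40139219 counts a library; at least-fold bounds (floor of 3 counts over a group) and 95% exact intervals cover counting error only. The steps were tested on simulated data.

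The lists and the comparison were chosen with earlier results of these data known. Named by rule were Ago2, 13 lineage genes, the 10 largest rises and falls of called genes that average 5 CPM or more over the 4 libraries, with no overlap between groups, the 6 largest gains and losses in CPM (predicted genes and pseudogenes left out of both), the 4 called genes of each list with the smallest p, all Hox and DNA methylation genes, and members that did not pass. The look by chromosome and the snoRNA, pseudogene and hairpin groups, and the counts of list members with a library left out, were chosen after seeing the data. Some genes that the rule names are not reported here. Alternatives were DESeq2 1.42.0 and its size factors, no filter, a test against a 2-fold change, the 4 libraries alone, each library left out, and a replicate block in the course.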

Additional observations from a re-analysis of the deposited data

How the results depend on the processing

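Of 9415 genes called, 5136 passed a test against a 2-fold change (2966 higher, 2170 lower). Leaving out each library gave 6389 to 9043 calls, with 3772 to 4789 higher and 2617 to 4254 lower, lowest for the lower genes without library A (2617) or library B (2743); the cause was not tested. In the course, leaving out each of the wild-type libraries gave 6081 to 7274 calls, with 3440 to 3931 higher and 2518 to 3352 lower, lowest without the first day 4 library (2518). DESeq2 called 9635 genes, a fit without the low-count filter 9467 and the 4 libraries alone 8588. In the last fit the median of the streak list was 0.757 in place of 1.47 and that of the muscle list 4.59 in place of 2.91. Among list members and genes named by rule, 6 gained a call in that fit and 27 lost one. Igf2bp3 had log2 fold changes of -0.946 without passage 33 and 1.465 without passage 42, and Wnt7b of 2.764 and -1.465; the cause was not tested.

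No paired analysis was possible because the deposited diff_XEN columns carry the letters A and B and not the numbers of the labels. In the course, same-numbered wild-type libraries had deviations correlated at -0.164 to 0.114. Such values cannot show whether these libraries share a culture, since variation within a day can hide it. With a replicate block 7978 genes were called (4514 higher, 3464 lower). With 2 libraries a group, and fewer than 10 counts in both mESC libraries for most Hox genes, the size of the largest rises is limited by depth.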

Other observations

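Non-coding transcripts that carry small nucleolar RNAs were lower in diff_XEN, a group chosen after its values were seen. Of 11 tested Snhg genes and Gas5, 9 fell and 1 rose, with a median log2 fold change of -1.87, where 25.3% of all genes tested fell. Gas5, a growth-arrest transcript that hosts many snoRNAs, stood at 218 and 493 CPM in mESC and at 25.6 and 41.0 CPM in diff_XEN, and its log2 fold change was -3.42. Snhg3 went from 38.4 and 90.2 CPM to 5.28 and 5.66 CPM and Snhg12 from 36.9 and 78.8 CPM to 6.14 and 8.23 CPM. Mir17hg, the host of the miR-17-92 cluster, went from 40.9 and 78.2 CPM to 4.79 and 8.37 CPM, with a log2 fold change of -3.18. The passage 42 library was above passage 33 for each of these 4, and the groups did not overlap. Of 120 tested snoRNA genes 98 fell and 0 rose, with a median of -2.92. Of 1270 tested processed pseudogenes 397 fell and 94 rose (median -0.64), against 3692 and 4486 of 14999 protein-coding genes (median 0.09).

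Log2 fold changes ran with transcript length across 17816 genes, with Spearman's rho of 0.123 and medians of -0.35 for genes with at most 2118 bases of exon and 0.155 for those with at least 6180, given as a description. On chromosome 1, the one that was higher at passage 42, 30.4% of genes tested were called higher in diff_XEN and 18.9% lower, and on chromosome 15, 21.3% and 27.5%, against 27.2% and 25.3% of all genes tested. Chromosomes 8, 10 and 19 had 31.1%, 31.0% and 31.7% called higher. Some genes moved differently at the endpoint and in the course. Egr1, an immediate early factor, had log2 fold changes of -1.59 at the endpoint and 4.52 from day 1 to day 4, both called, and Trib3, a stress-induced pseudokinase, 1.27 and -2.55, where the endpoint call was lost when passage 33, library A or library B was left out. Whether these differences between the comparisons exceed their error was not tested.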
